A study of Mus musculus with 18 samples.

Results

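The genes described here are 35 mouse genes with known roles in meiotic recombination, in the chromosome axis and its cohesin, and in tethering chromosome ends to the nuclear envelope. They were chosen by name, from their known functions, out of 52636 genes in the deposited tables, and all 35 symbols were found. The choice was made with earlier results of these data known. Of these genes, 7 act in break formation and hotspot choice, 9 in strand exchange and break repair, 8 in crossover formation, 7 in the axis and its cohesin, and 4 in telomere attachment. They were followed through 18 poly-A RNA-seq libraries from liver, brain and testis of male C57BL/6 mice aged 8 weeks. Each tissue had 3 wild-type (WT) libraries, numbered 1 to 3, and 3 libraries labelled PCGF6 KO (KO), numbered 4 to 6. The knockout allele, and whether each library came from its own animal, are not given in the sources used here, so p-values measure only the spread between these libraries. Pcgf6, the targeted gene, was lower in every KO library than in every WT library of its tissue, but KO libraries kept reads of it. The main test used below (limma, calls at a Benjamini-Hochberg adjusted p under 0.05) did not call Pcgf6 in any tissue. A gene left uncalled by that test may therefore still differ between genotypes. For Pcgf6 the limma adjusted p was 0.0638 (testis), 0.485 (liver) and 0.9998 (brain). Its FPKM (fragments per kilobase of gene, scaled by a library size) was 1.92 ± 0.65 in KO against 4.91 ± 0.79 in WT liver, 3.98 ± 0.60 against 5.02 ± 0.38 in brain and 9.93 ± 0.59 against 20.9 ± 1.25 in testis (SD, n = 3 each).

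Meiosis begins recombination on purpose: SPO11 and its partners cut both strands of the DNA, at sites marked by the histone methyltransferase PRDM9. The ends are resected and then paired with the homologous chromosome by the recombinase DMC1, and a few of the resulting joints mature into crossovers under a set of dedicated crossover proteins. All of this takes place on an axis built from meiosis-specific cohesins and HORMA-domain proteins, with the telomeres held in the nuclear envelope. PCGF6 is a subunit of PRC1.6, a polycomb complex that represses germ cell genes outside the germ line and is brought to promoters by DNA-binding partners that include MGA with MAX, which binds an E-box, and E2F6.

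The libraries held between 18990130 and 23529098 reads. Marker lists of the labelled tissues were present in each (summed TPM, a level per gene length scaled to the same total in each library, of 86018 to 106253 for 12 hepatocyte markers in liver, 5358 to 5791 for 11 neuronal markers in brain and 62978 to 92940 for 14 spermatid markers in testis). Some libraries stood apart. Of the 6 liver libraries, KO 5 and KO 6 held 71 and 56 reads of the spermatid genes Prm1, Prm2, Tnp1 and Tnp2 together, against 0 in KO 4 and 2 to 5 in WT. In brain, WT 3, KO 5 and KO 6 held 86, 172 and 68 such reads and 611, 270 and 345 reads of the liver transcript Alb, against 6 to 9 and 1 to 24 in the other libraries. In testis, WT 3 lay outside the range of the other 5 libraries for 23 of the 35 genes, and had the lowest spermatid sum of the tissue. Some results are given with and without these libraries. They are the brain median, the liver changes of Tex11, Syce1 and Mael, the Tex11 difference between testis and liver, and a few testis results. For most other values only the fit with all libraries is given.

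The promoters of the 5 members with an E-box are shown first, because they carry a sequence that a partner of PRC1.6 is known to bind. Windows from 250 bases before to 50 bases after a RefSeq transcript start (GRCm38.p6) were found for 29 of the 35 members. The E-box CACGTG, on either strand, occurred in 5 of the 29, which is 17.2%, against 8.09% of 27025 genes with a window. The E2F sequence GCGGGAA, on either strand, occurred in 11, which is 37.9% against 5.29% of those genes, and both occurred in 4, which is 13.8% against 0.514%. In the windows printed here these 2 sequences do not overlap each other. Members with both were Rec114, Rnf212, Stag3 and Hormad1, and Cntd1 had the E-box alone. The E2F sequence without the E-box occurred in Prdm9, Spata22, Hsf2bp, Brca2, Rad51ap2, Msh5 and Smc1b. In the lines below, capitals mark each match, so that TTCCCGC is the E2F sequence read on the other strand. The windows are chr9:58741510-58741809 on the minus strand for Rec114, chr5:108774978-108775277 on the minus strand for Rnf212, chr11:101278953-101279252 on the plus strand for Cntd1, chr5:138280259-138280558 on the plus strand for Stag3 and chr3:95559427-95559726 on the plus strand for Hormad1. The start sites of the Rec114, Cntd1 and Stag3 windows lie inside the gene models of the deposited tables.
Rec114: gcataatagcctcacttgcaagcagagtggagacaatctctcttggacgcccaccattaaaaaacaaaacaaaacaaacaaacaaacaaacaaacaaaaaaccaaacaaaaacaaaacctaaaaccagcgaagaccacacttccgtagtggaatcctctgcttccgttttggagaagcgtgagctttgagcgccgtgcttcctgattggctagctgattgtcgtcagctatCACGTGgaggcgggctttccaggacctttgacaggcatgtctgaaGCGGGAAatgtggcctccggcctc
Rnf212: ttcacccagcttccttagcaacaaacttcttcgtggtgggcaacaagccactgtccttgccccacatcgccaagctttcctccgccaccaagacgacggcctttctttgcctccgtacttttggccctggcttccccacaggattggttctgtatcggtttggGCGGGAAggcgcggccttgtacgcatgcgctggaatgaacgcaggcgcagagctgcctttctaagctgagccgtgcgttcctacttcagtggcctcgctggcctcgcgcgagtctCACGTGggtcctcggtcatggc
Cntd1: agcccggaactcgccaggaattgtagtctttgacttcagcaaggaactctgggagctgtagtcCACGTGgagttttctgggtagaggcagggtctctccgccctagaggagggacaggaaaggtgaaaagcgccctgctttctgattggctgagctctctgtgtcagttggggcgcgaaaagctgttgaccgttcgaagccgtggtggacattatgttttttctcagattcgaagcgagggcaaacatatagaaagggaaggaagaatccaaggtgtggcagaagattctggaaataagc
Stag3: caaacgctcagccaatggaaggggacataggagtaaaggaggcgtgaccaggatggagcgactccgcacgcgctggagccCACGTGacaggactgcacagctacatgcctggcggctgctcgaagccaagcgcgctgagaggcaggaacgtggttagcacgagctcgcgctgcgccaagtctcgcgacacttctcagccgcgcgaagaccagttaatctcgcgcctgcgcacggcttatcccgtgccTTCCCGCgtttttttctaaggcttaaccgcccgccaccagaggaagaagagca
Hormad1: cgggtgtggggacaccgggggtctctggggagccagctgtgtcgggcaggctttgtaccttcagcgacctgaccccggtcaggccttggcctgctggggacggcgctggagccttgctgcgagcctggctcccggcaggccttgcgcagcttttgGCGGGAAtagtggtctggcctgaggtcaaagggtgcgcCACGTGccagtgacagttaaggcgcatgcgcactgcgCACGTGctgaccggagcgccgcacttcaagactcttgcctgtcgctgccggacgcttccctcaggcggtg
A match describes letters only, and no binding was measured. Hormad1, with 2 E-boxes and an E2F sequence, had 0 reads in 5 of 6 liver libraries and 1 read in KO 6. Rnf212, which also carries both, had 0 reads in all 6 liver libraries. Rec114, Cntd1 and Stag3 were higher in every KO liver library than in every WT one, as were 4.94% of the genes tested in liver; Cntd1 and Stag3 had too few reads for that test. Zcwpw1, also higher in every KO liver library, held neither sequence in its windows. The members with the E2F sequence alone overlapped between genotypes in liver, or had no reads there (Rad51ap2). In brain Rec114, Cntd1 and Stag3 overlapped between genotypes, with log2 fold changes, KO minus WT, of -0.11 ± 0.24, -0.24 ± 0.26 and 0.17 ± 0.36 (SE). A link between these sequences and the KO values was not tested.

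In WT animals these genes were testis genes with a few exceptions. Levels between tissues and between genes are given as TPM, which is FPKM rescaled to the same sum in each library. The axis and its cohesin held the most abundant members in WT testis. Stag3, a meiosis-specific cohesin subunit, measured 201 ± 22.8 TPM (SD, n = 3), Hormad1 152 ± 30.0 and Smc1b, the meiotic SMC1, 135 ± 9.34. Psmc3ip, the HOP2 protein that helps DMC1 find its partner strand, was second of all at 175 ± 23.5 TPM. Rec8, the meiotic kleisin, followed at 68.8 ± 5.31 TPM, Sun1, which spans the inner nuclear membrane, at 50.3 ± 1.83 and Spo11 at 48.0 ± 9.99. Of the members, 18 exceeded 20 TPM and 2 lay under 5 TPM, namely Rad21l, a second meiotic kleisin, at 4.47 ± 0.70 TPM, and Mei4, a partner in break formation, at 0.341 ± 0.040. Order within this ladder was coarse: in 26 of 34 neighbouring pairs the 3 libraries of both genes overlapped.

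**Figure D1:**
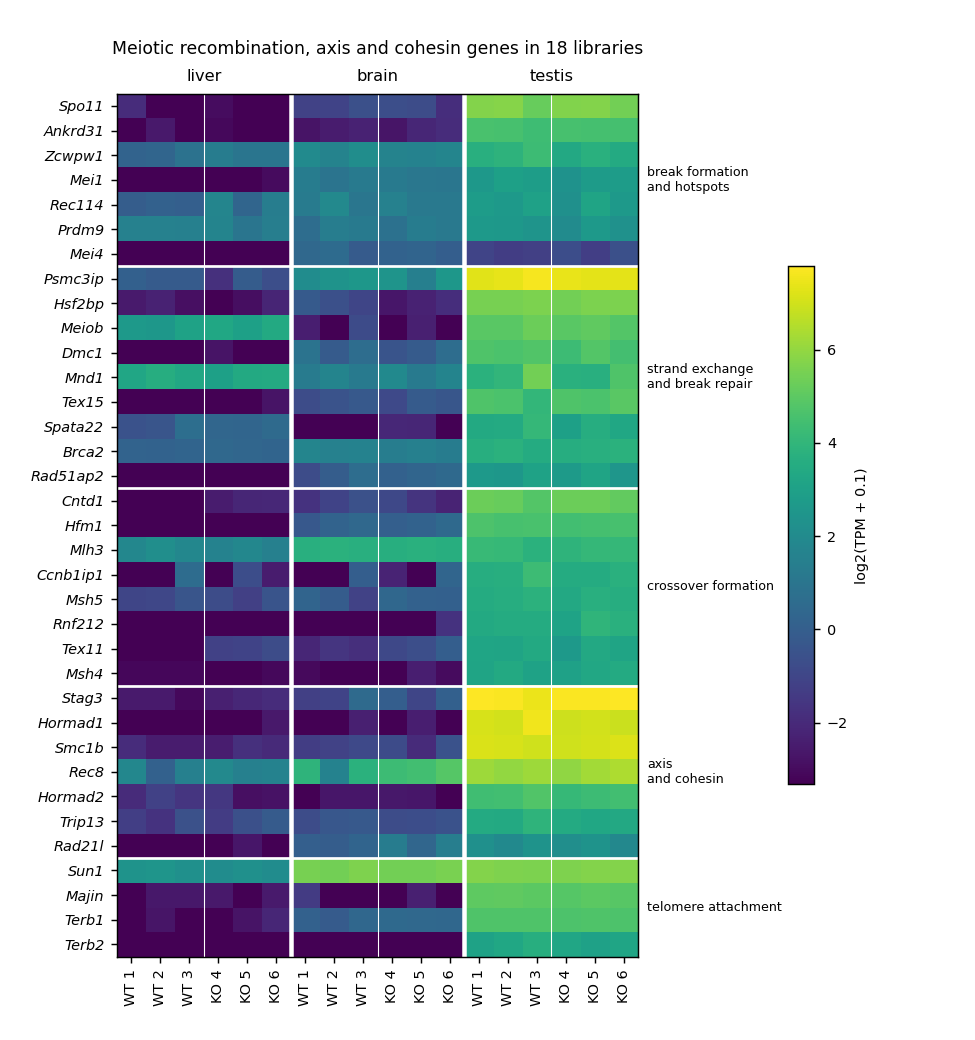
Level of each of the 35 genes (rows, grouped by role and by mean in WT testis) in each of the 18 libraries (columns) as log2(TPM + 0.1), from dark (low) to yellow (high). Testis columns are bright for all rows but Mei4, and Mnd1, Meiob, Prdm9, Mlh3 and Sun1 are also bright in liver.

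Set against WT liver, 34 of the 35 members were higher in WT testis (limma, Benjamini-Hochberg adjusted p under 0.05) and none was lower, where 69.3% of the 21737 genes tested were higher and 18.9% lower. The exception was Mnd1, the partner of HOP2, at 10.5 ± 1.20 TPM in liver and 23.9 ± 15.9 in testis, a difference of 0.99 ± 0.42 on the log2 scale (adjusted p = 0.0607). Its testis libraries were uneven, with WT 3 far above the other two, and the difference was called without WT 1 (1.29, adjusted p = 0.0424) or without WT 3 (0.49, adjusted p = 0.0204). Of the members, 21 passed the filter on reads only through testis and so had to differ, and 12 had no read in any WT liver library. The members at 10% of their testis level or more were Prdm9, at 48.2% of its testis level, Mnd1 at 44.0%, Mlh3, a gene of crossover formation, at 22.8%, Meiob, a single-stranded DNA binder, at 19.9%, Rec114 at 13.2% and Sun1 at 10.2%. On the deposited FPKM scale 33 members were higher and neither Mnd1 nor Prdm9 was called. That scale moved the median difference of all genes from 2.01 to 1.06 and the share of calls that were higher in testis from 78.6% to 66.0%.

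Brain held more members than liver at 10% of the testis level or more. In WT testis 32 members were higher than in WT brain and 1 was lower, against 42.2% and 44.8% of the 22836 genes tested. Of the members, 11 passed the filter on reads only through testis and so had to differ. The lower one was Mei4, at 1.15 ± 0.30 TPM in brain and 0.341 ± 0.040 in testis, a log2 difference of -1.47 ± 0.24 (limma, adjusted p = 0.000986). Its 3 brain libraries all lay above its 3 testis libraries, on 88 reads in brain and 35 in testis. Sun1 (45.9 ± 3.70 TPM in brain, adjusted p = 0.174) and Mlh3 (13.1 ± 0.54 TPM in brain against 16.3 ± 2.36 in testis, adjusted p = 0.0669) were not called, and both were called higher in testis on the FPKM scale, which moved the median of all genes from -0.12 to 0.42. In all, 12 members reached at least 10% of their testis level in brain, against 6 in liver, and 12 stayed under 1%, against 21 in liver. The brain levels that came closest, after Mei4, Sun1 and Mlh3, were those of Rec114 at 37.9%, Prdm9 at 35.4% and Mei1, a gene needed for break formation, at 30.8% of testis. Hormad1, Rnf212 and Terb2, a telomere-tethering protein, had 0 or 1 read in total in the 3 WT libraries of either tissue.

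**Figure D2:**
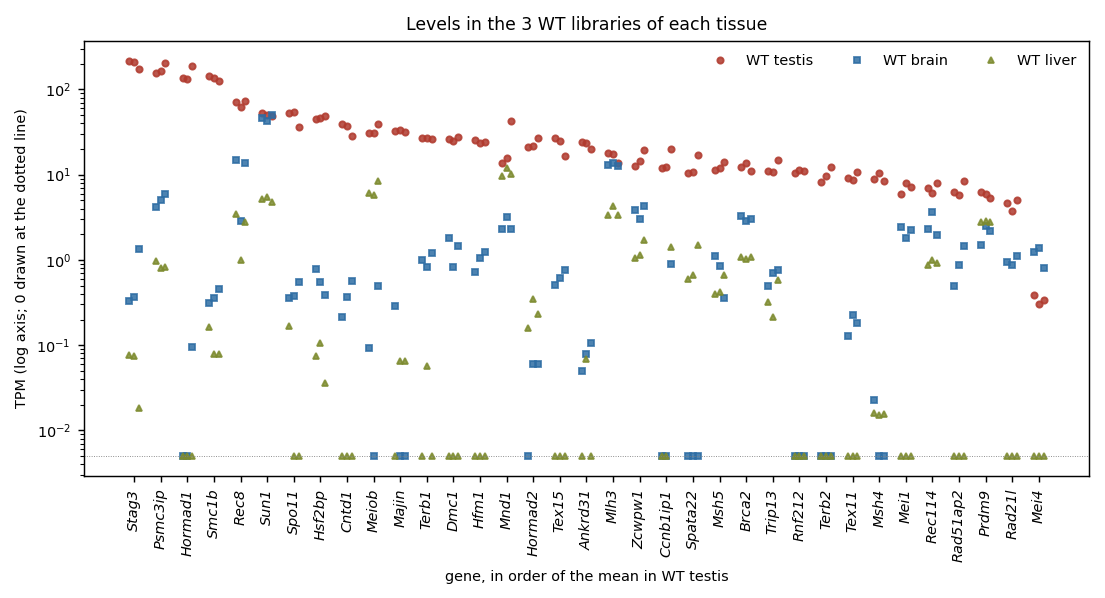
TPM (log axis) of each gene in the 3 WT libraries of testis (circles), brain (squares) and liver (triangles), in the order of the mean in WT testis, with libraries at 0 drawn at the dotted line. Testis lies above both other tissues for most genes, brain reaches it for Sun1 and Mlh3, and brain exceeds it for Mei4.

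In liver most of the set was silent or nearly so in both genotypes, and no member was called. Of the set, 5 genes were without reads in all 6 libraries (Mei4, Rad51ap2, Hfm1, Rnf212 and Terb2), 10 had 1 to 9 reads, and 14 had enough for the test (at least 10 reads in at least 3 libraries). Of those 14, 9 were higher and 5 lower in KO, 0 were called, and 0.0212% of all 14124 genes tested were called. An unadjusted p under 0.05 was reached by 4 members, all higher in KO (Tex11, Rec114, Zcwpw1 and Meiob), where 4.38% of all genes reached it. Their median log2 fold change, KO minus WT on the log2(FPKM + 0.1) scale, was 0.318, against 0.000735 for all genes, but it fell to 0.0691 without WT 2. Of the 14, 3 had every KO library above every WT library and 0 the reverse, against 4.94% and 4.58% of all genes. Tex11 was tested only because of its KO libraries.

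Tex11, an X-linked protein (chromosome X, 100838648 to 101059667) that works with the synapsis and crossover machinery, had the largest log2 fold change of the 14. It had 0 reads in each of the 3 WT liver libraries and 11, 14 and 15 reads in KO 4, KO 5 and KO 6. That is 0.242, 0.249 and 0.320 FPKM. The mean of these KO values was at least 4.71-fold above a floor of 3 reads per WT library. The groups did not overlap, and the KO libraries lay close together. In KO liver Tex11 reached 4.25% of its WT testis level (0.407 ± 0.084 against 9.57 ± 1.04 TPM). The log2 fold change of 1.88 ± 0.22 (SE) did not pass adjustment in limma (adjusted p = 0.145). It passed with limma voom (0.0351) and with voom quality weights, each of which called 2 of 14124 genes. It also passed in a single limma fit to all 18 libraries (4.76e-05), which called 63 genes higher and 24 lower. The main fit called 3 higher and 0 lower. Tex11 was not called in the other 14 of its 17 alternatives, and its limma adjusted p ran from 0.300 to 0.724 with 1 library left out. Because Tex11 was tested only through its KO libraries, these passes are a description.

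Tex11 reads were present in the KO liver library that held no read of the protamine and transition protein genes. KO 4, with 11 Tex11 reads, had 0 reads of Prm1, Prm2, Tnp1, Tnp2, Odf1, Ldhc and Pgk2, while KO 5 and KO 6, with 14 and 15 Tex11 reads, had 71 and 56 reads of the first 4 of these genes. Over all 14 spermatid markers the summed level was 28.3 to 37.0 TPM in WT and 23.1 to 49.2 TPM in KO liver. These sums overlapped, and the 3 markers that were tested were lower in KO. Markers with too few reads for the test went the other way. Prm1 had 2 reads in WT and 28 in KO liver, Prm2 7 and 40, Tnp1 0 and 20, Tnp2 2 and 39, and Odf1 0 and 23. All of these KO reads came from KO 5 and KO 6. Without KO 5 and KO 6 the log2 fold change was 1.77 (adjusted p = 0.975 in limma, with the lone KO library assumed to vary like the WT libraries). In testis itself Tex11 measured 3.16, 2.98 and 3.49 FPKM in WT and 2.39, 3.49 and 2.99 in KO.

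**Figure D3:**
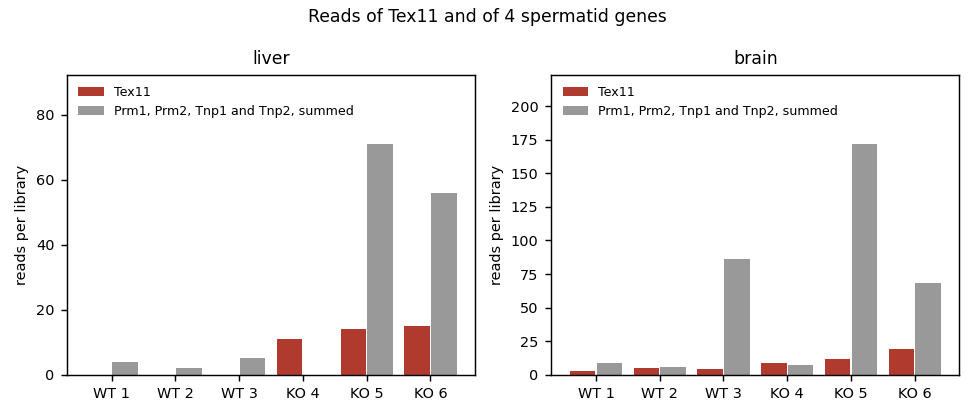
Reads of Tex11 (red) and summed reads of the spermatid genes Prm1, Prm2, Tnp1 and Tnp2 (grey) in each liver and brain library. In liver, Tex11 is at 0 in WT 1 to 3 and at 11 to 15 in KO 4 to 6, and KO 4 has Tex11 reads with none of the spermatid genes; in brain, WT 3 has 86 spermatid reads with 4 Tex11 reads.

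Other members were higher in KO liver without overlap but at very low levels. Cntd1, a cyclin-like protein needed for crossovers to mature, had 0 reads in WT 1 to 3 and 3, 6 and 5 reads in KO 4 to 6. Its KO mean was at least 1.62-fold above the floor, and KO 4, at 3 reads, lay close to the floor. Cntd1 was too low for the main test, and with a looser filter its log2 fold change of 0.81 was not called (limma, adjusted p = 0.790). Of its 4421 exonic bases 3104 overlap Becn1 on the opposite strand, and whether the counting used strand is not given in the sources used here, so its reads cannot be told from those of Becn1. Stag3 had 4, 4 and 1 reads in WT and 5, 8 and 8 in KO (log2 fold change 0.48, adjusted p = 0.999 with the looser filter), which is 0.0668% of its WT testis level in KO.

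Rec114, which binds MEI4 at the sites of future breaks, measured 0.590, 0.614 and 0.578 FPKM in WT liver and 2.24, 0.758 and 1.57 in KO 4, KO 5 and KO 6. All KO libraries were higher, but KO 5 only slightly. The log2 fold change was 1.11 ± 0.35 (limma, adjusted p = 0.962). Zcwpw1, which reads the histone marks that PRDM9 leaves, measured 0.728, 0.700 and 1.08 FPKM in WT and 1.72, 1.28 and 1.21 in KO, again without overlap (0.69 ± 0.23, adjusted p = 1.00). Meiob overlapped between genotypes, at 4.16, 3.53 and 5.28 FPKM in WT and 6.87, 5.23 and 6.67 in KO (0.53 ± 0.18, adjusted p = 1.00). Rec114 shares 344 exonic bases with Nptn and Zcwpw1 468 with Pilra, each on the opposite strand. Prdm9 itself overlapped between genotypes, at 1.92, 1.74 and 1.76 FPKM in WT and 2.18, 1.26 and 1.63 in KO (-0.12 ± 0.21, adjusted p = 1.00), with a 95% interval of the difference from -0.62 to 0.37.

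Several members that are abundant in testis had fewer than 10 reads in either genotype of liver. Spo11 had 6 reads in WT and 1 in KO, Hormad1 0 and 1, Majin 2 and 2, and Hsf2bp, which brings BRCA2 to meiotic breaks, 6 and 4. Dmc1 had 0 and 1. A count of 0 still allows up to 3 reads per library. Of the other genes of the pathway, Syce1 (synaptonemal complex, 1 of 4 tested members called) and Mael (other meiotic genes, 1 of 5) were called. Syce1 rose from 0 reads to 39, 39 and 29 reads in KO liver (limma log2 fold change 4.23 ± 0.21, adjusted p = 0.00104), and Mael, which silences transposons in male germ cells, from 0 to 409, 237 and 392 (7.17 ± 0.30, adjusted p = 0.000639). With WT at 0 reads, both passed the read filter through the KO libraries alone, which fixed the sign, and the pseudocount sets the size. Over 17 alternatives the log2 fold change ran from 1.48 to 7.48 for Syce1 and from 3.94 to 10.5 for Mael. These calls are therefore a description. Without KO 5 and KO 6 Syce1 was no longer called (4.48, adjusted p = 0.130) and Mael was; the Mael call was lost with limma voom (adjusted p = 0.103) and with voom quality weights (adjusted p = 0.139). Of the recombination genes that somatic cells also use, 28 of 34 were tested, 16 higher and 12 lower, and 0 were called. Of the mitotic cohesin genes and their regulators, 15 of 16 were tested, 8 higher and 7 lower, and 0 were called.

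**Figure D4:**
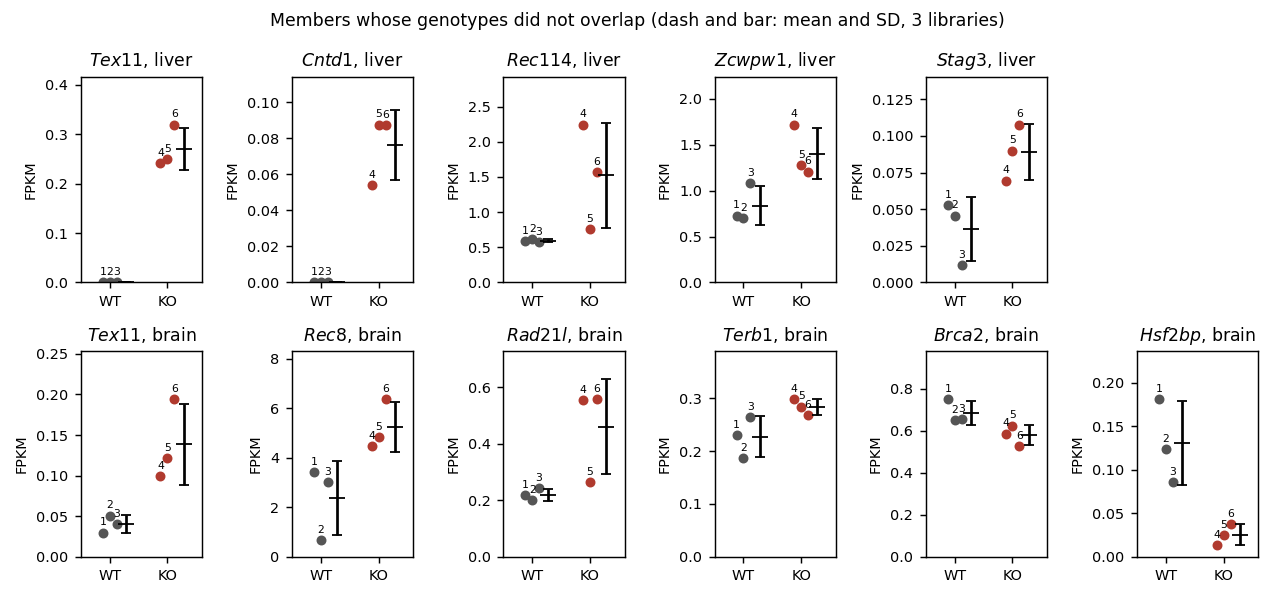
FPKM in each library (points, numbered as in the labels; WT grey, KO red; dash and bar, mean and SD of 3 libraries) of members whose genotypes did not overlap and differed by at least 10 reads in liver (top) or brain (bottom). Tex11 and Cntd1 are at 0 in all WT liver libraries, and Hsf2bp in brain is the one in which KO is lowest relative to WT.

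In brain 23 of the 35 members were tested, 11 higher and 12 lower in KO, and 0 were called, against 0.0837% of 17922 genes. An unadjusted p under 0.05 was reached by 2 of them (Rec8 and Rad21l), against 4.46% of all genes. The median log2 fold change was -0.03, against 0.00725 for all genes, and 0.107 without WT 3, KO 5 and KO 6. Every KO library lay above every WT library for 3 members (Rec8, Rad21l and Terb1) and below for 1 (Brca2), against 4.99% and 4.09% of all genes. Rec8 and Rad21l are both kleisins of meiotic cohesin, and neither was called. A joint change of meiotic cohesin was not tested.

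Rec8 measured 3.42, 0.657 and 3.02 FPKM in WT brain and 4.47, 4.84 and 6.38 in KO. The KO libraries were all higher, and WT 2 was far below the rest. The log2 fold change of 1.38 ± 0.53 (limma, adjusted p = 1.00) came to 0.67 without WT 2. Rad21l measured 0.217, 0.200 and 0.243 FPKM in WT and 0.555, 0.266 and 0.560 in KO, with KO 5 close to WT (0.76 ± 0.25, adjusted p = 0.965). Of the cohesin partners of these kleisins, Stag3 measured 0.0754, 0.0835 and 0.294 FPKM in WT and 0.209, 0.0897 and 0.207 in KO, and Smc1b differed by 0.02 ± 0.24. Glial and proliferation markers were measured beside them. The 10 glial markers summed to 4788 to 5485 TPM in WT and 5190 to 6290 in KO, with 8 higher and 2 lower. The 13 proliferation markers summed to 85.6 to 88.6 TPM in WT and 89.1 to 96.3 in KO, with 7 of the 9 tested higher, 0 called and 0 of the 13 at 0 reads. Their part in the Rec8 and Rad21l values was not tested.

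Tex11 was also higher in KO brain, at 3, 5 and 4 reads in WT and 9, 12 and 19 in KO, too low for the main test (log2 fold change 0.75, adjusted p = 0.881 in limma with the looser filter). The groups did not overlap, and WT 3, which held 86 spermatid reads, was among the low libraries. Hsf2bp was lower in every KO library, with 15, 10 and 7 reads in WT and 1, 2 and 3 in KO (-0.86, adjusted p = 0.834 with the looser filter). Brca2, the partner that HSF2BP binds, measured 0.752, 0.651 and 0.655 FPKM in WT and 0.587, 0.625 and 0.528 in KO (-0.21 ± 0.14, adjusted p = 1.00). Terb1, which links telomeres to the membrane, was higher in every KO library, at 0.231, 0.187 and 0.264 FPKM in WT and 0.299, 0.284 and 0.267 in KO (0.24 ± 0.17, adjusted p = 1.00), with the nearest libraries of the genotypes almost equal. Mei4, the member with more in brain than in testis, measured 0.288, 0.313 and 0.178 FPKM in WT and 0.233, 0.250 and 0.198 in KO (-0.12 ± 0.20, adjusted p = 1.00). Sun1, the most abundant member in brain, measured 10.5, 9.63 and 10.9 FPKM in WT and 9.79, 9.86 and 10.2 in KO (-0.05 ± 0.06).

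Among the other pathway genes of brain, Syce1 rose from 9, 4 and 4 reads to 40, 47 and 60 (limma log2 fold change 2.53 ± 0.23, adjusted p = 0.0142) and Mael from 3, 0 and 10 to 448, 288 and 492 (5.69 ± 0.41, adjusted p = 0.00264). Syce1 and Mael were the called members of 6 tested synaptonemal complex genes and 19 tested other meiotic genes. No WT brain library of Syce1 reached 10 reads, so it passed the read filter through its KO libraries alone. Mael reached 10 reads in WT 3 but in no other WT library, and would not have passed without its KO libraries. Both calls are therefore a description. The Syce1 call was lost in 8 of 17 alternatives, 5 of which left out a single library (each of WT 2, WT 3 and the KO ones, adjusted p between 0.0610 and 0.0908). The Mael call was lost in 1 of 17, with a pseudocount of 0.01 (adjusted p = 0.102). Iho1, which recruits the REC114 and MEI4 complex to the axis, had 19, 11 and 12 reads in WT and 42, 45 and 40 in KO and was not called (1.26 ± 0.18, adjusted p = 0.127). Of the shared recombination genes 32 were tested, 20 higher and 12 lower, and of the mitotic cohesin genes 14, with 7 each way. In neither list was a gene called.

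In testis, where all 35 members were expressed and tested, the genotypes lay close together. Of the members 17 were higher and 18 lower in KO, none was called (limma adjusted p from 0.871 to 0.999), and none reached an unadjusted p under 0.05. For comparison 0.00448% of 22341 genes were called and 4.13% reached that p. Log2 fold changes ran from -0.36 to 0.34, with a median of -0.0258 against 0.0318 for all genes. The 95% interval of the difference lay between -1 and 1 on the log2 scale for 34 of the 35, the exception being Mnd1, and between -0.5 and 0.5 for 19. Bulk RNA cannot tell fewer cells of a type from less RNA per cell, so a level here mixes both. Without WT 3 the count of called members was also 0.

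The values of the most abundant members of each role are given here. Stag3 measured 74.4, 71.7 and 56.9 FPKM in WT testis and 77.3, 70.9 and 74.9 in KO (0.14 ± 0.12), and Hormad1 46.8, 45.0 and 60.5 in WT and 46.1, 43.8 and 40.3 in KO (-0.21 ± 0.13). Both genes overlapped between genotypes, and in both WT 3 was the library farthest out. Psmc3ip measured 53.6, 56.5 and 65.4 FPKM in WT and 63.9, 53.5 and 54.9 in KO (-0.03 ± 0.11). Spo11 measured 18.1, 18.6 and 11.9 FPKM in WT and 19.0, 17.5 and 14.4 in KO (0.09 ± 0.19). Cntd1, the most abundant crossover gene, measured 13.2, 12.7 and 9.13 FPKM in WT and 14.3, 12.8 and 11.7 in KO (0.16 ± 0.16). The genotypes of all 3 overlapped. Sun1 measured 17.9, 17.0 and 15.8 FPKM in WT and 18.7, 17.7 and 18.1 in KO (0.11 ± 0.08). Majin, which anchors the telomere complex in the inner membrane, differed by -0.05 ± 0.09.

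A single member was lower in every KO testis library and a single one higher, against 4.32% and 7.57% of all genes. Zcwpw1 measured 4.36, 4.90 and 6.36 FPKM in WT and 3.85, 4.35 and 3.74 in KO. The nearest libraries, WT 1 and KO 5, were almost equal. Its log2 fold change of -0.36 ± 0.16 (limma, adjusted p = 0.871) was -0.21 without WT 3. Hsf2bp, the higher one, differed by 0.04 ± 0.07 and ranged only from 15.3 to 16.2 FPKM. Mnd1 had the widest spread, at 4.71, 5.32 and 13.7 FPKM in WT and 4.95, 4.22 and 8.94 in KO.

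**Figure D5:**
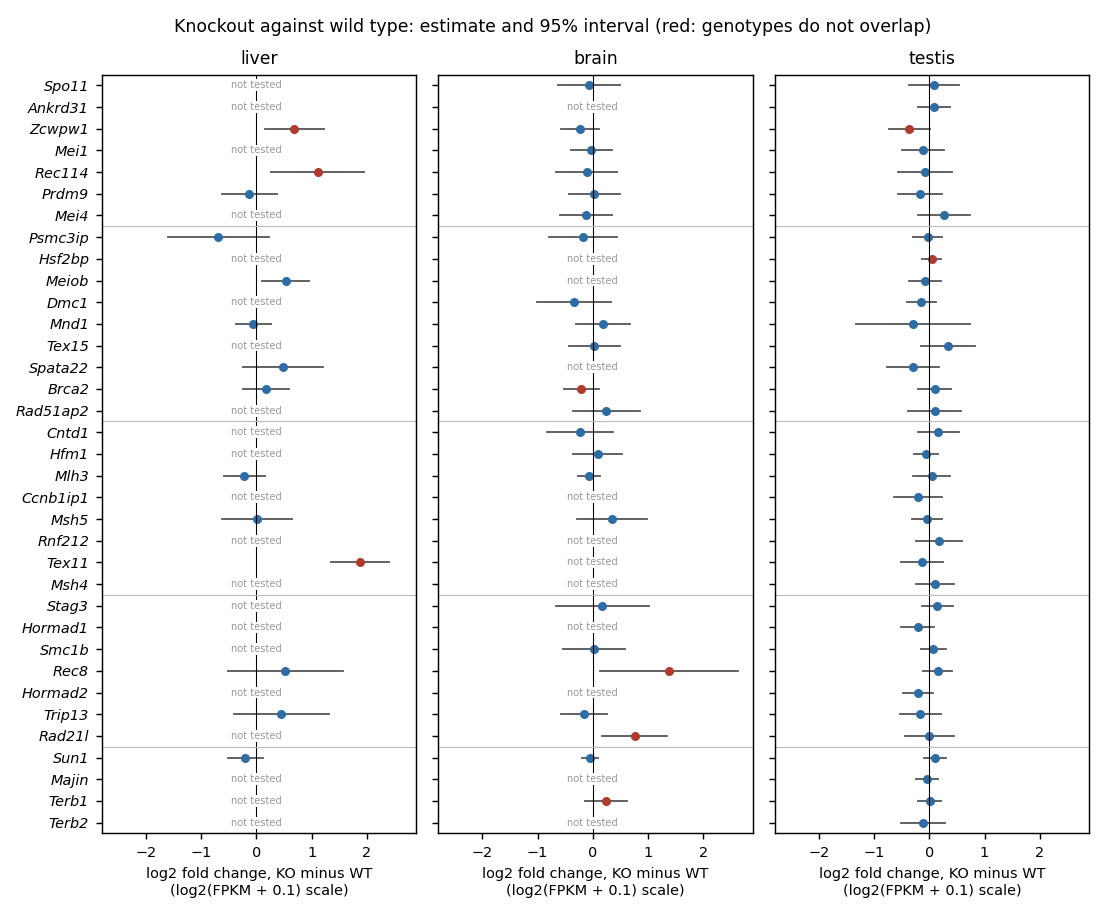
Log2 fold change, KO minus WT, on the log2(FPKM + 0.1) scale (points) with its 95% interval (lines) for each gene in each tissue; red points are genes whose genotypes do not overlap, and genes with too few reads are marked as not tested. In liver 14 genes are tested and 7 intervals lie between -1 and 1, and in brain 23 and 19. In testis all 35 points lie between -0.36 and 0.34, and 34 intervals lie between -1 and 1, Mnd1 being the exception.

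Summed levels of the germ cell marker lists of testis overlapped between genotypes. No list covered the cells between spermatogonia and pachytene spermatocytes. Spermatogonia markers summed to 224 to 285 TPM in WT and 190 to 234 in KO, with 3 of the 13 tested higher, 10 lower and 0 called. The 14 markers of pachytene and later spermatocytes, the cells in which recombination is completed, summed to 9143 to 9686 TPM in WT and 9420 to 9601 in KO, with 12 higher, 2 lower and 0 called. Spermatid markers summed to 62978 to 84310 TPM in WT and 71437 to 92940 in KO, with 14 of 14 higher and 0 called, and Sertoli markers to 1896 to 2851 and 1567 to 2196, with 12 of 13 lower and 0 called. Leydig markers summed to 1658 to 2545 TPM in WT and 1371 to 2033 in KO, with 4 higher, 5 lower and 0 called. The glial list alone separated the genotypes, at 21.3 to 22.9 TPM in WT and 28.0 to 30.3 in KO, with 8 of the 8 tested higher and 0 called. Their part in the members' values was not tested. Other pathway genes in testis had no call: 8 synaptonemal complex genes, 27 other meiotic genes, 34 shared recombination genes and 16 mitotic cohesin genes were tested, of which 5, 18, 19 and 8 were higher.

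Whether the KO effect on a member differed between tissues was tested directly with an interaction term in limma. Between testis and liver 1 of 14 members was called, against 0.0457% of 13133 genes: the log2 fold change of Tex11 in testis minus that in liver was -2.01 ± 0.24 (adjusted p = 0.00666). Tex11 entered this test through its KO liver libraries alone, which fixed the sign of its liver term, and with WT at 0 reads the pseudocount sets its size, so the value is a description. In testis the change was -0.13 ± 0.16 and in liver 1.88 ± 0.22. The call was lost with a pseudocount of 1 (-0.44, adjusted p = 0.866) and without liver KO 5 and KO 6 (-1.90, adjusted p = 0.0673), and its 17 alternatives gave adjusted p-values between 1.34e-05 and 0.866. The next member was Zcwpw1, at -1.05 ± 0.28 (adjusted p = 0.604). Between brain and liver 0 of 11 members differed (smallest adjusted p 0.682, 2 at an unadjusted p under 0.05), against 0.0% of 12922 genes, and between testis and brain 0 of 23 (smallest adjusted p 0.928, 1 at an unadjusted p under 0.05), against 0.0626% of 15962 genes. These comparisons share each tissue's WT and KO libraries.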

How the data were processed

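The authors deposited FPKM per gene and library. Per the submitters' processing notes, HISAT2 2.0.5, featureCounts 1.5.0-p3 and DESeq2 1.16.1 were used with mm10, and their roles, the strand setting and the FPKM scaling are not given in the sources used here. Deposited FPKM times gene length was a whole multiple of a step per library (tolerance 0.01 reads), so reads were recovered. Spata22 has a second entry without reads, which was left out.

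KO and WT were compared within each tissue in limma 3.58.1, run in R 4.3.3, with log2(FPKM + 0.1) as the response and a mean-variance trend. A gene needed 10 reads or more in 3 or more of the 6 libraries. P-values were adjusted over all genes tested (Benjamini-Hochberg), with calls at an adjusted p under 0.05. WT tissues were compared on log2(TPM + 0.1), and KO effects between tissues with an interaction term on 12 libraries. The steps were tested on simulated data. Intervals and floors cover counting error or library spread only.

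Members and lists were chosen with earlier results of these data known. Values per library are given for members whose genotypes did not overlap in liver or brain with at least 10 reads of difference, and for the most abundant members of each role in testis. Those of Meiob, Mnd1, Prdm9, Mei4 and Iho1 and the zero-read examples were chosen after their values were seen. In liver, libraries with the same file-name number deviated together (correlations 0.354, 0.162 and 0.299). In brain and testis this held in part. Correlations were positive for numbers 1 and 3 (0.0949 and 0.252 in brain, 0.0849 and 0.0902 in testis) and negative for number 2 (-0.0848 and -0.0647). All values printed come from fits without a block unless said otherwise, and the block was run as an alternative.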

Additional observations from a re-analysis of the deposited data

Results flagged for a closer look

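Tex11 was the member called in the test of the difference between the KO effects in testis and liver: the log2 fold change in testis minus that in liver was -2.01 ± 0.24 (SE, limma interaction term, adjusted p = 0.00666, 12 libraries). Tex11 had 0 reads in the 3 WT liver libraries and 11, 14 and 15 in the KO ones, and 275, 278 and 309 reads in WT testis against 196, 318 and 267 in KO testis. It passed the read filter in liver through the KO libraries alone, so the sign of its liver term was fixed by the filter. The liver value rests on 40 reads with WT at the pseudocount, and the difference ran from -0.44 with a pseudocount of 1 to -4.93 with 0.01. It is given as a description.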

How the results depend on the processing

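Over 13 summaries and 191 alternatives, 174 values stayed within the limits set for a change and 17 moved. The medians of the block fit and of the single fit over 18 libraries equal the main ones by design and count among those that stayed. Of 261 values for 17 single genes, 239 kept direction and side of the threshold and none reversed. In liver the members' median log2 fold change of 0.318 became 0.112 with a pseudocount of 1, 0.189 with a filter on 10 summed reads and 0.141 with no filter beyond 1 read, and leaving out 1 library gave 0.0691 (without WT 2) to 0.434 (without WT 3). The liver count of 0 called members became 1, Tex11, with limma voom, with voom quality weights and in the single fit over 18 libraries. In that single fit 63 genes of 14124 were called higher and 24 lower, against 3 and 0 in the main fit. In brain the median became 0.107 without WT 3, KO 5 and KO 6. In testis the median of -0.0258 became -0.107 when scaled to total reads, -0.0753 with TPM and -0.0601 with voom, and ran from -0.0375 to 0.00861 (without KO 6) with 1 library left out. The testis minus liver count of 1 became 0 with a pseudocount of 1 and without liver KO 5 and KO 6. The causes were not tested. With the file-name number as a replicate block, members called stayed at 0 in all 3 tissues. The medians of 0.318, -0.0302 and -0.0258 could not change, because each number joins a WT and a KO library of a tissue. In liver, where the numbers paired the libraries, the blocked limma adjusted p was 0.245 for Tex11, 0.513 for Rec114 and 0.613 for Zcwpw1, and called genes went from 3 to 2 of 14124. The block ended the Syce1 call in brain, where the numbers paired the libraries only in part (correlations 0.0949, -0.0848 and 0.252). In testis the correlations were 0.0849, -0.0647 and 0.0902. The alternatives without WT 3, KO 5 and KO 6 in brain, without WT 3 and KO 4 in testis and without KO 5 and KO 6 in liver were chosen after seeing the data. Too few reads for the test were seen for 21 of 35 members in liver and 12 in brain, at like library totals.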

Other observations

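Rec8 was lowest in WT 2 of both somatic tissues, at 26 reads in liver against 72 to 87 in WT 1 and WT 3 and at 49 reads in brain against 227 to 261, and at 1512 reads in testis against 1577 and 1613. Ccnb1ip1, a ring-finger protein of crossover formation, had 0, 0 and 20 reads in WT 1 to WT 3 and 0, 8 and 1 in KO 4 to KO 6 of liver, and 0, 0 and 8 in WT and 1, 0 and 10 in KO of brain. In testis its highest level was again in WT 3, at 6.43 FPKM against 4.14 and 4.17 in WT 1 and WT 2. It shares 233 exonic bases with Rpph1 on the same strand, and how reads in that stretch were assigned is not given in the sources used here. Whether equal numbers mark the same animal in different tissues is not given in the sources used here.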
